A study of Gallus gallus with 24 samples.

Results

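The cytosolic ribosomal protein genes are the 70 of 23910 genes in the count table whose symbol begins with RPL, RPS or RPLP followed by a number, without the 9 RPS6K rows, which encode kinases. Of these, 44 belong to the large and 26 to the small ribosomal subunit. The choice used the gene symbols only and no measured value. Total RNA was sequenced from peripheral blood mononuclear cells (PBMCs) of 6 Cobb500 broiler chickens of 4 to 6 weeks, kept for 24 h under 4 conditions, which gave 24 libraries. BS cells were co-cultured with living Bacillus subtilis and BV cells with living Bacillus velezensis, both at 1 PBMC to 3 bacteria. The conA cells received 10 µg/ml concanavalin A, a plant lectin that drives T cells to divide, as the positive control for proliferation. The control cells received medium alone. All cells were isolated from blood over dextran and Ficoll, rested overnight with antibiotics, and then treated at 41°C in RPMI medium with 10% chicken serum and no antibiotics. Each library pools duplicate wells of 1 chicken, and each chicken gave a library to every condition.

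A ribosome consists of a small subunit, which reads the mRNA, and a large subunit, which joins the amino acids. Each subunit is a framework of ribosomal RNA on which one copy of most ribosomal proteins is assembled in the nucleolus. Vertebrate ribosomal protein mRNAs carry a 5′ terminal oligopyrimidine (TOP) tract, through which the mTOR pathway and the protein LARP1 set how much of them is translated. A resting lymphocyte makes few ribosomes. A lymphocyte that is activated by a mitogen makes many before it divides.

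The 70 rows carry 69 symbols, because RPL17 has 2 entries, of which one received almost no reads. A total of 68 rows averaged 10 or more normalized counts, the counts as deposited after division by the size factor of the library. The exceptions were RPL3L, a paralog of RPL3 known from muscle in mammals, with a mean of 6.19, and the second RPL17 entry, with a mean of 1.58. RPS19BP1 matches the naming pattern and is counted in the small subunit, but it encodes a protein that binds RPS19 and is no part of the ribosome. RefSeq gives RPL26, RPL39 and RPS4X as other names of the rows RPL26L1, RPL39L and RPS4Y1. A further 13 human ribosomal protein symbols had no row under their own name or a RefSeq synonym and are not analysed here.

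The libraries held 12170873 to 31242160 counted reads, and the shallowest was the BS library of chicken 5. The marker genes looked up for T cells summed to 49772 to 67548 normalized counts in every library. The sums were 1885 to 5141 for B cells and 78.3 to 759 for monocytes or macrophages. They cover 10, 8 and 6 rows and are not per gene length, so they do not compare numbers of cells. Markers of thrombocytes, the nucleated platelets of birds, ranged far more, with 674 to 97622. The libraries of chickens 1 and 2 were numbered in 1 run with all 4 conditions together, whereas the conA libraries of chickens 3 to 6 were numbered apart from the others. The labels do not say what these numbers stand for.

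Ribosomal protein genes took a larger share of all counts after conA, and a slightly lower mean share after either Bacillus strain, by less than 1 SD of the control libraries. In conA libraries the large subunit genes took 1.66% at the lowest, 2.05% at the median and 2.26% at the highest. In BS libraries these values were 1.25%, 1.48% and 1.66%, in BV libraries 1.22%, 1.498% and 1.63%, and in control libraries 1.38%, 1.51% and 1.82%. The conA share was above the control share in 6 of 6 chickens, although the group ranges overlapped. The means were 2.00% ± 0.253 in conA, 1.48% ± 0.162 in BS, 1.47% ± 0.153 in BV and 1.54% ± 0.167 in control libraries (SD, n = 6 each). The conA mean was 1.30 times the control mean. Within single chickens, as numbered by the labels, this ratio ran from 1.06 in chicken 5 to 1.62 in chicken 3. Same-numbered conA and control libraries correlated clearly in only 4 of 6 chickens, so a ratio may not compare libraries of 1 bird. The BS mean was 0.959 times and the BV mean 0.956 times the control mean, and in each of these conditions the share was higher than in control in 1 of 6 chickens. The BS count depended on the measure. By summed normalized counts 2 of 6 were higher, and 3 of 6 without the 20 most counted other rows and the mitochondrial rows. In BV it was 1 of 6 by each measure.

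The small subunit genes took 0.969% ± 0.128 of all counts in conA, 0.729% ± 0.0790 in BS, 0.718% ± 0.0830 in BV and 0.763% ± 0.0920 in control libraries (SD, n = 6 each). The conA mean was 1.27 times the control mean. By the library labels, 5 of 6 chickens were higher after conA, with a ratio of up to 1.67, and chicken 5 was lower at 0.983. By summed normalized counts 6 of 6 were higher, with a lowest ratio of 1.03. Without the 20 most counted other rows and the mitochondrial rows 6 of 6 were higher too, from 1.02. The ratios of the means were 0.956 for BS and 0.942 for BV, with a share above that of control in 2 of 6 chickens each. By summed normalized counts these were 3 of 6 in BS and 1 of 6 in BV. The large subunit genes took 1.92 to 2.16 times as many counts as the small subunit genes in all 24 libraries, with mean ratios of 2.07 in conA, 2.02 in BS, 2.05 in BV and 2.02 in control libraries. The balance between the subunits thus moved little, although their sum differed between conditions. As bulk libraries, these data cannot tell a smaller number of cells of a type apart from less RNA per cell.

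**Figure D1:**
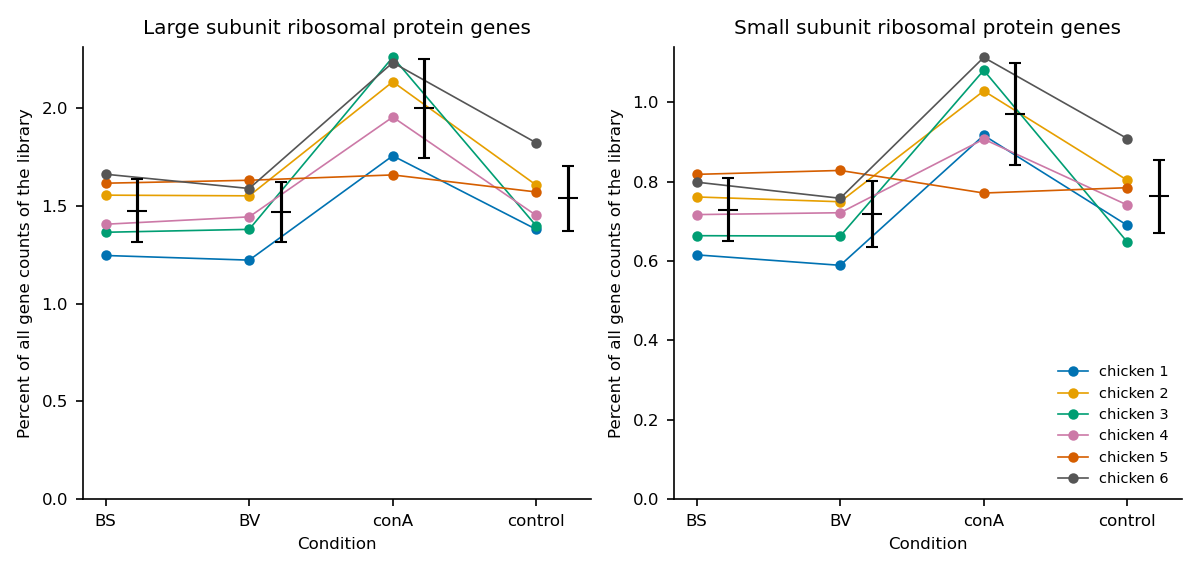
Share of all gene counts of a library that fell on large (left) and small (right) subunit ribosomal protein genes, in percent, by condition. Points are libraries, lines join the libraries of 1 chicken, and the black bar beside each condition is its mean ± SD (n = 6). The conA means of 2.00% and 0.969% stand above those of the other conditions. By the library labels, which alone assign a conA library to its chicken, chicken 5 is the only one with a lower small subunit share in conA than in control.

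The first comparison asks which ribosomal protein genes responded to the mitogen. After conA, 17 of 70 genes rose at an adjusted p under 0.05 by edgeR's quasi-likelihood test and 0 fell, while 2.2% of all 20266 genes tested rose and 0.138% fell. Of the 4201 genes that averaged 1000 or more normalized counts, 163 rose and 15 fell. Of the 17 genes, 12 were large and 5 were small subunit genes. The changes were small in size, because 0 members passed the study's additional threshold of an absolute log2 fold change above 1.5, which 0.873% of all genes passed. The median log2 fold change was 0.33 over the large and 0.26 over the small subunit genes, against -0.03 over all genes tested and -0.02 over the 4201 genes that averaged 1000 or more normalized counts. A total of 67 of 70 members had a positive log2 fold change, where 8947 of all 20266 genes did. In 6 of 6 chickens, 38 members were higher in conA than in control, where 5.75% of all genes were. With the chicken as a block, the count was 28 (20 large and 8 small), where 3.52% of all genes rose, and it included all 17 genes. The counts of 38 and 28 members take libraries of the same number as 1 chicken. Such conA and control libraries correlated clearly in only 4 of 6 chickens.

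RPL5, which carries the 5S ribosomal RNA into the large subunit together with RPL11, showed one of the clearest responses. It had 21774, 28002 and 30266 normalized counts in conA libraries (lowest, median and highest) and 16721, 17104 and 18267 in control libraries. Every conA library exceeded every control library. The log2 fold change was 0.63 (SE 0.0963, adjusted p = 0.000726 by edgeR's quasi-likelihood test). Its partner RPL11 did not pass the test. It had 5654, 7882 and 9232 normalized counts in conA and 5762, 7105 and 8465 in control libraries, which overlapped throughout, with a log2 fold change of 0.12 (SE 0.127, adjusted p = 0.749 by edgeR's quasi-likelihood test).

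RPL22L1, a paralog that can take the place of RPL22, had the highest fold change of all members. Its normalized counts were 1101, 1328 and 1597 in conA libraries (lowest, median and highest), against 497, 721 and 1057 in control libraries. The ranges did not overlap, and the log2 fold change was 0.85 (SE 0.157, adjusted p = 0.00419 by edgeR's quasi-likelihood test). RPL22, which is required for the development of alpha-beta T cells in mice, had 8349, 9569 and 12638 normalized counts in conA and 7280, 8006 and 9991 in control libraries. It was higher in 5 of 6 chickens but did not pass the test, with a log2 fold change of 0.29 (SE 0.116, adjusted p = 0.294 by edgeR's quasi-likelihood test).

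Within this pair, RPL22L1 reached 13.8% ± 3.07 of the RPL22 counts in conA libraries, against 8.55% ± 1.04 in BS, 9.45% ± 1.56 in BV and 9.07% ± 1.78 in control libraries (SD, n = 6 each). The share was higher in conA than in each other condition in 6 of 6 chickens, but the ranges overlapped because the conA library of chicken 4 had 8.71%. These counts are not per length, so the share does not compare numbers of molecules. RPL7L1, a paralog of RPL7 known for a role in making the large subunit, had 11.6% ± 2.03 of the RPL7 counts in conA and 10.6% ± 1.68 in control libraries and was higher in 3 of 6 chickens.

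Among the remaining large subunit genes that rose, RPL26L1, listed by RefSeq as RPL26, had 16443, 20972 and 28291 normalized counts in conA and 13267, 14204 and 15632 in control libraries (lowest, median and highest). The ranges did not overlap, and the log2 fold change was 0.56 (SE 0.117, adjusted p = 0.0128 by edgeR's quasi-likelihood test). RPL7A, a large subunit protein, had 5717, 6680 and 8855 in conA and 4496, 4719 and 5625 in control libraries, again without overlap. Its log2 fold change was 0.54 (SE 0.118, adjusted p = 0.0180 by edgeR's quasi-likelihood test). The other 8 large subunit genes had log2 fold changes of 0.37 for RPL9, 0.43 for RPL32, 0.44 for RPL21, 0.45 for RPL7L1, 0.48 for RPL6, 0.48 for RPL23, 0.50 for RPL4 and 0.50 for RPL27. Of these, RPL9, RPL21, RPL7L1, RPL23 and RPL27 kept the call in only 1 of the 6 fits that left out 1 chicken. RPL32 kept it in 2, RPL6 in 3 and RPL4 in 4.

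In the small subunit, RPS6, the protein that S6 kinases phosphorylate downstream of mTOR, was among the clearest. It had 18102, 23648 and 25884 normalized counts in conA libraries (lowest, median and highest) and 13251, 14570 and 17910 in control libraries. All conA libraries were above all control libraries, and the log2 fold change was 0.60 (SE 0.105, adjusted p = 0.00254 by edgeR's quasi-likelihood test).

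RPS2, which sits at the mRNA entry side of the small subunit, had 3462, 5939 and 6223 normalized counts in conA libraries (lowest, median and highest) and 2415, 3139 and 4292 in control libraries. It had the highest log2 fold change of the small subunit at 0.71 (SE 0.171, adjusted p = 0.0397 by edgeR's quasi-likelihood test), yet its ranges overlapped because the conA library of chicken 5 was low. The calls of RPS2 and RPS24 were lost in most fits that left out 1 chicken. RPS24, one of the genes mutated in human Diamond-Blackfan anaemia, had 9438, 11786 and 14381 in conA and 7524, 8578 and 9429 in control libraries. Its lowest conA library stood just above its highest control library, and its log2 fold change was 0.48 (SE 0.109, adjusted p = 0.0226 by edgeR's quasi-likelihood test). RPS15A had a log2 fold change of 0.47, also without overlap. In all, conA and control libraries did not overlap for 8 large and 4 small subunit genes, where 1.89% of all genes were higher without overlap.

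**Figure D2:**
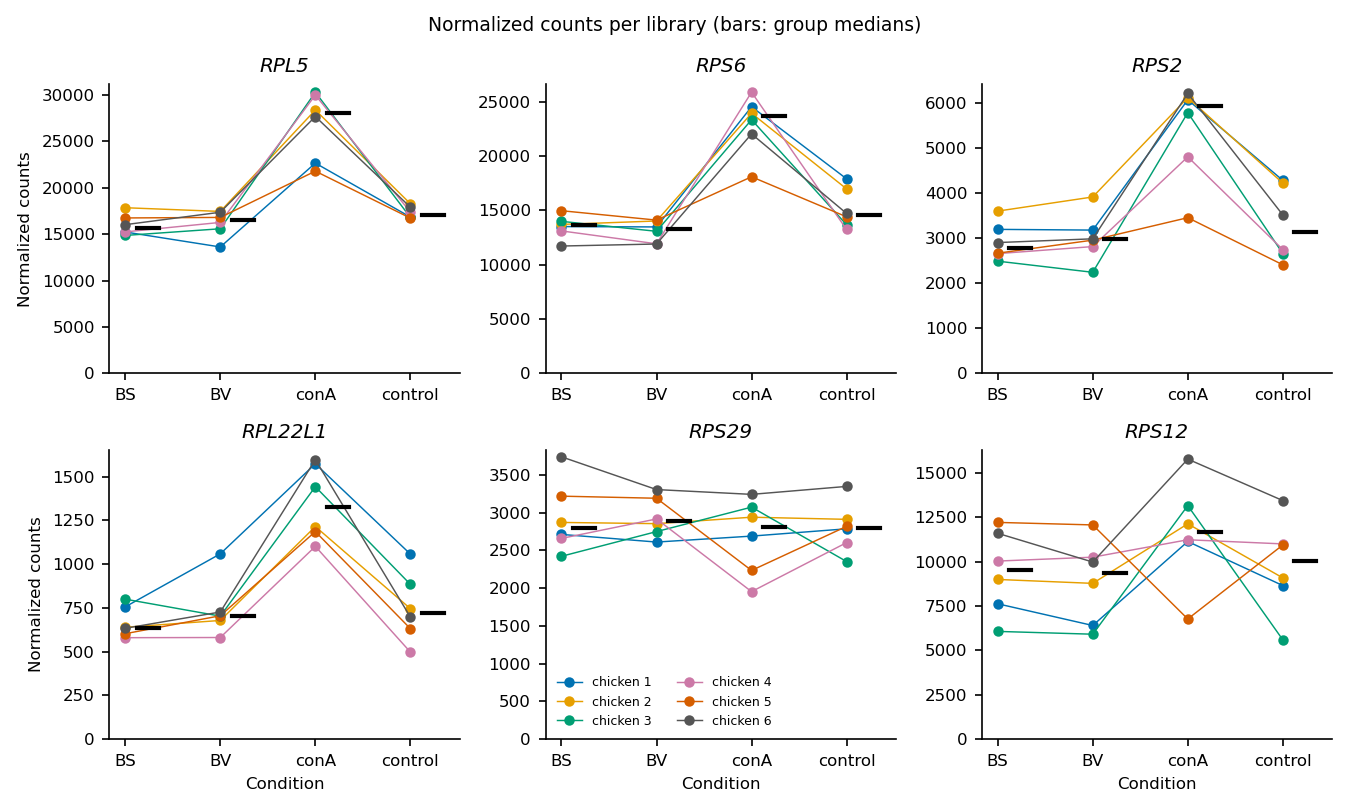
Normalized counts of RPL5, RPS6, RPS2, RPL22L1, RPS29 and RPS12 in every library by condition. Points are libraries, lines join the libraries of 1 chicken, and black bars are group medians. RPL5, RPS6 and RPL22L1 separate conA from control without overlap, RPS2 does so but for chicken 5, RPS29 does not, and RPS12 differs mainly between chickens.

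Other members had values close to those of control. RPS29, a small zinc-binding protein of the small subunit, had 1954, 2814 and 3242 normalized counts in conA and 2352, 2802 and 3347 in control libraries (lowest, median and highest). It was higher in conA in 2 of 6 chickens, and its log2 fold change was -0.06, with a 95% interval of -0.31 to 0.19. RPS27L, a paralog of RPS27 that p53 induces in human cells, had 103, 182 and 226 in conA and 141, 186 and 245 in control libraries, with a log2 fold change of -0.09 and a 95% interval of -0.48 to 0.31. Both ranges overlapped throughout, and with RPL3L, which had too few reads for its value of -0.25 to be read, these were the 3 members with a negative log2 fold change. RPS20 (0.06), RPS16 (0.08), RPL39L (0.08), RPL31 (0.09) and RPL37A (0.11) followed in order of their log2 fold changes, all short of the test. RPS19BP1, the member that is no ribosomal protein, had 461, 611 and 900 in conA and 520, 556 and 699 in control libraries. It was higher in 2 of 6 chickens, with a log2 fold change of 0.13 (SE 0.155, adjusted p = 0.787 by edgeR's quasi-likelihood test).

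The stalk proteins RPLP0, RPLP1 and RPLP2, which recruit elongation factors to the ribosome, did not pass the test, though RPLP1 and RPLP2 were the most counted large subunit genes. RPLP1 had 26886, 33013 and 50018 normalized counts in conA and 21813, 27083 and 29354 in control libraries (lowest, median and highest). RPLP2 had 23963, 30282 and 45128 in conA and 19125, 23290 and 30653 in control libraries. Both were higher in conA in 6 of 6 chickens, with log2 fold changes of 0.42 and 0.42 and adjusted p-values of 0.117 and 0.194 by edgeR's quasi-likelihood test. RPLP0, the anchor of the stalk, had 9560, 14851 and 15929 in conA and 8034, 11848 and 13681 in control libraries, with a log2 fold change of 0.26 (SE 0.136, adjusted p = 0.437 by edgeR's quasi-likelihood test). RPS27A, which is made as a fusion with ubiquitin, was higher in conA in 6 of 6 chickens, with a log2 fold change of 0.37 (SE 0.109, adjusted p = 0.102 by edgeR's quasi-likelihood test).

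The size of the difference varied with the level at which a gene was counted. Among the 34 more counted of the 68 members (6533 to 27498 normalized counts on average), 12 rose after conA and the median log2 fold change was 0.35. Among the 34 less counted members (176 to 6351), 5 rose and the median was 0.25. More reads also give a test more power, and the counts are not per length, so these values describe the table and not the abundance of the proteins.

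**Figure D3:**
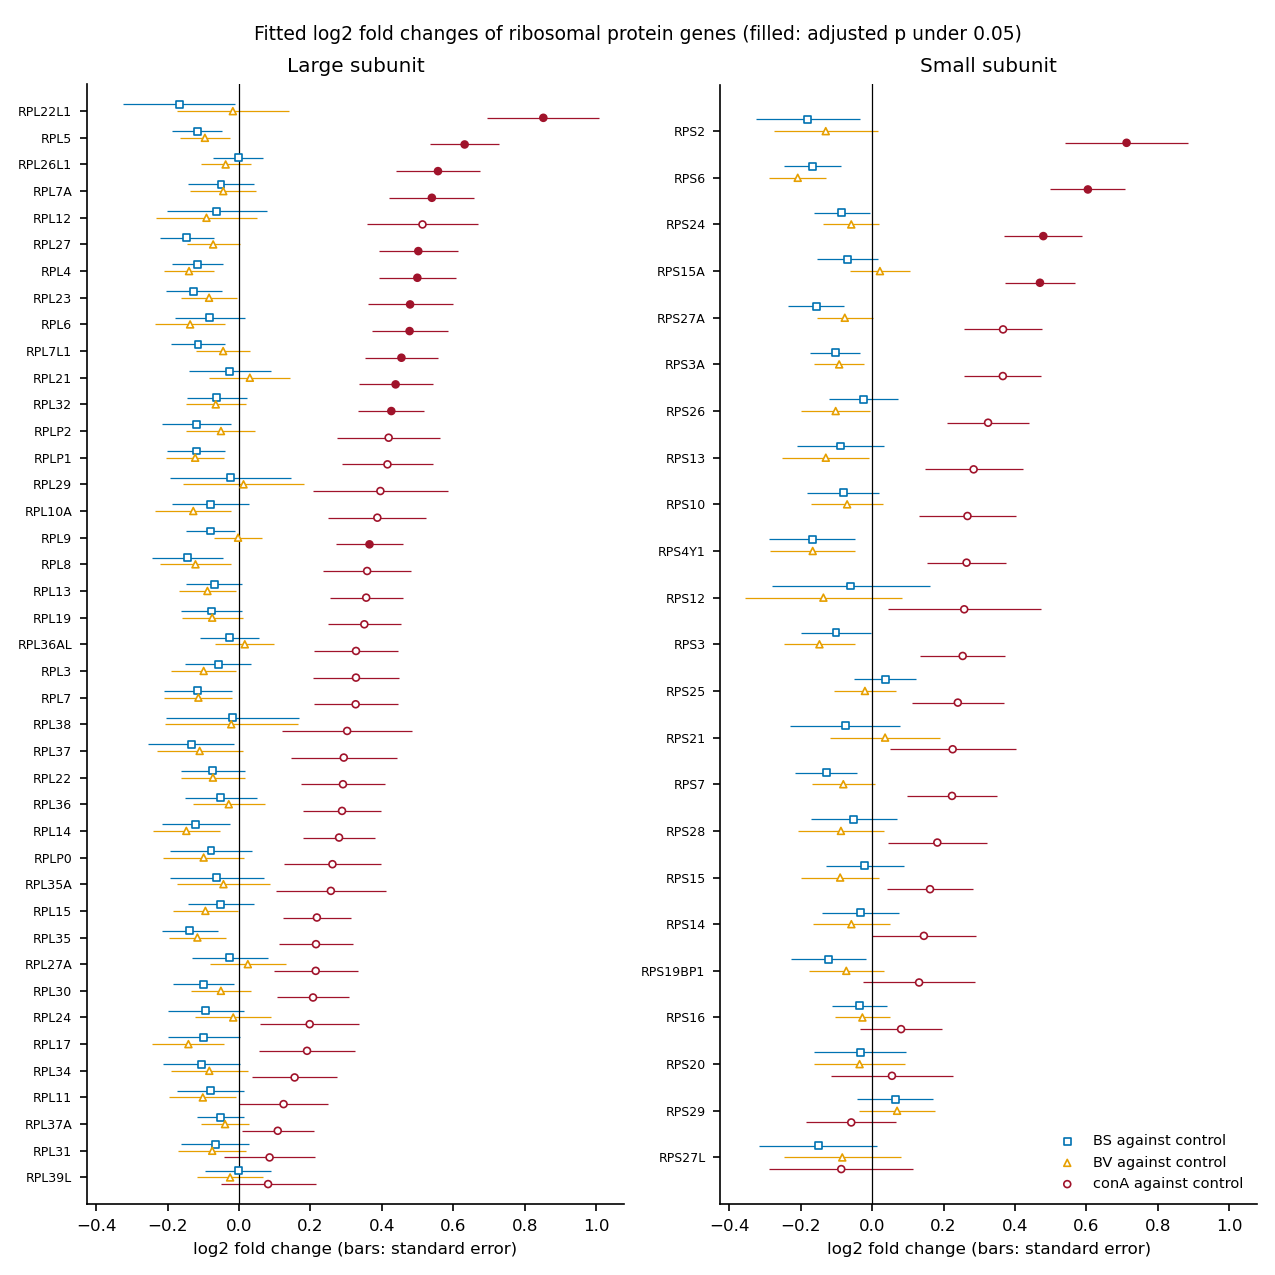
Log2 fold changes of members that averaged 10 or more normalized counts (a few that are not reported here are left out), for BS, BV and conA against control, with large subunit genes on the left and small subunit genes on the right, ordered by the conA value. Bars are standard errors and filled symbols passed an adjusted p under 0.05. The conA values run from -0.09 for RPS27L to 0.85 for RPL22L1, whereas all BS and BV values shown lie between -0.21 and 0.07 and none is filled.

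The second question is whether the Bacillus strains moved these genes. After BS, 0 members rose and 0 fell by edgeR's quasi-likelihood test, where 0% of all genes tested rose and 0% fell. After BV, 0 members rose and 0 fell, where 0% rose and 0.00493% fell. In each comparison 1 member, RPS6, had an unadjusted p under 0.05, where 637 of all 20266 genes did in BS and 597 in BV. DESeq2 also called 0 members in both. Over all genes it called 14 higher and 3 lower in BS, and 10 higher and 1 lower in BV. With the chicken as a block 0 members passed as well, where 0.641% of all genes rose and 0.395% fell after BS, and 0.602% rose and 0.311% fell after BV, although 12 members in BS and 11 in BV had an unadjusted p under 0.05, all of them lower than control. Over all genes tested, 5.2% in BS and 5.14% in BV were lower at that p. Of the 4201 genes that averaged 1000 or more normalized counts, 380 in BS and 374 in BV were. In the same fit 3 of 8 B cell markers rose in each condition, as did 3 of 8 erythrocyte markers in BS and 2 of 8 in BV, and their part in the members' values was not tested. The BS, BV and conA comparisons share the same 6 control libraries and are not independent of each other.

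The fitted differences were small and mostly below 0. The median log2 fold change of the members was -0.08 after BS and -0.08 after BV, against 0 and -0.01 over all genes tested. In BS the values of the 68 members with enough reads ran from -0.18 for RPS2 to 0.07 for RPS29, and in BV from -0.21 for RPS6 to 0.07 for RPS29. No 95% interval of these members reached beyond -0.49 or 0.37 in BS, or beyond -0.57 or 0.34 in BV. These bounds limit the size of a difference, but they do not show that there was none. Positive values were found for 5 of 70 members in BS and 8 of 70 in BV, where 9814 and 9509 of all 20266 genes were positive. The members were measured in the same libraries, so they are not separate observations of a condition.

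RPS6 had 11729, 13618 and 14979 normalized counts in BS libraries, 11915, 13285 and 14114 in BV libraries, and 13251, 14570 and 17910 in control libraries (lowest, median and highest). The groups overlapped, but the BV library was the lower one in 6 of 6 chickens. The log2 fold change was -0.17 in BS and -0.21 in BV, each with an adjusted p of 1 by edgeR's quasi-likelihood test. That fit had no term for the chicken. With the chicken as a block, the smallest adjusted p of any member in BV was 0.0599 by the same test. When chicken 3 or chicken 5 was left out of the blocked fit, RPS6 passed in BV (adjusted p = 0.0432 and 0.0412 by edgeR's quasi-likelihood test). RPL6 was likewise lower in BV than in control in 6 of 6 chickens, and so were RPL24 and RPS27A in BS. These are 2 of 70 members in each comparison, where 2.27% of all genes were lower in BS and 2.62% in BV in 6 of 6 chickens.

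The members with the lowest and highest values in each Bacillus comparison were all short of the test. In BS, the large subunit genes RPL22L1, RPL27, RPL8 and RPL35 had log2 fold changes of -0.17 to -0.14, and the small subunit genes RPS2, RPS4Y1, RPS6 and RPS27A of -0.18 to -0.16. In BV, RPL14, RPL17, RPL4 and RPL6 had -0.15 to -0.14, and RPS6, RPS4Y1 and RPS3 had -0.21 to -0.15. Towards the upper end stood RPS29 in both comparisons, RPS25 in BS, and RPL21, RPL27A, RPL36AL, RPS21 and RPS15A in BV, all at 0.07 or less.

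The strains were also set against each other. Between BS and BV, 0 members differed by edgeR's quasi-likelihood test, where 0% of all genes did. DESeq2 called 0 members and 0 of all genes. By edgeR's test 0 members had an unadjusted p under 0.05, where 227 of all 20266 genes did. Of the 4201 genes that averaged 1000 or more normalized counts, 0 had such a p. The median log2 fold change was -0.002. Values ran from -0.15 for RPL22L1 to 0.08 for RPS26, and no 95% interval reached beyond -0.46 or 0.51.

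**Figure D4:**
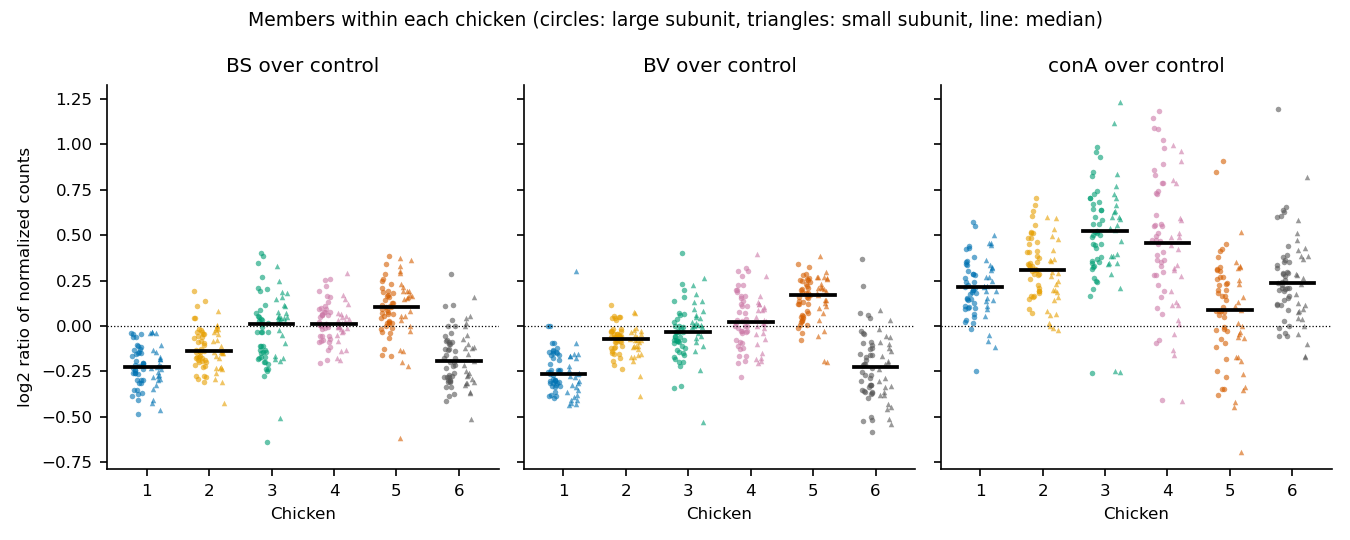
Log2 ratios of normalized counts within each chicken for BS, BV and conA over control, for the 68 members that averaged 10 or more normalized counts. Circles are large and triangles small subunit genes, and the black line is the median over members. The conA medians are above 0 in all 6 chickens (0.09 to 0.52), while the BS and BV medians are below 0 in chickens 1, 2 and 6 and above 0 in chickens 4 and 5.

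Within most chickens, the ribosomal protein genes tended to lie on the same side of control, but in a few they were more evenly split. After conA, the median log2 ratio over the 68 members was 0.21, 0.31, 0.52, 0.46, 0.09 and 0.23 in chickens 1 to 6, and 63, 66, 65, 61, 42 and 60 members were higher than in the control library. Chicken 5 stood apart, because only 42 members were higher there, with 13 of 26 in the small subunit. Chickens are named here by the library labels. Same-numbered conA and control libraries correlated clearly in only 4 of 6 chickens, so a ratio may not compare libraries of 1 bird. The members of a chicken are not replicates of the condition, and each of these values rests on 1 pair of libraries.

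After BS, the medians were -0.22, -0.14, 0.01, 0.01, 0.11 and -0.20 in chickens 1 to 6, with 0, 7, 35, 40, 53 and 10 of 68 members higher than in control. After BV, they were -0.27, -0.07, -0.03, 0.02, 0.17 and -0.22, with 3, 9, 27, 40, 61 and 7 members higher. Nearly all members were thus lower than control in chickens 1, 2 and 6 and most were higher in chicken 5. The BS and BV values of a chicken share its control library, and the direct BS to BV medians stayed between -0.05 and 0.05 in every chicken. For genes of similar counts, those averaging 1000 or more, the medians over control stayed between -0.05 and 0.04 in both comparisons.

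The levels also differed between chickens in the absence of the mitogen. Averaged over the BS, BV and control libraries, the chicken with the highest level exceeded the one with the lowest by a median of 1.25 times over the 68 members, against 1.34 times over the 4201 genes that averaged 1000 or more normalized counts. RPS12 differed most, with an average of 11747 normalized counts in chicken 5 and 5861 in chicken 3, a fold of 2.00. RPL38 followed with 1927 in chicken 1 and 1098 in chicken 4, a fold of 1.76. RPL4, by contrast, differed by 1.10 times between chickens. Chickens 3 and 4 were lowest for 22 and 24 members, while chickens 1, 2, 5 and 6 were highest for 16, 16, 17 and 18. Chickens 1 and 5 were also lowest for 10 and 9. The median SD of log2 levels was 0.121 between chickens and 0.109 within a chicken. It was larger between chickens for 44 of the 68 members.

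RPS12, a small subunit protein, is the member where this spread was widest. It had 6773, 11690 and 15788 normalized counts in conA and 5596, 10018 and 13450 in control libraries (lowest, median and highest). By the library labels, it was higher after conA in 5 of 6 chickens and lower in chicken 5, with 6773 in its conA and 10946 in its control library. The average over BS, BV and control libraries was 11747 in chicken 5 and 5861 in chicken 3. Only the labels assign a conA library to its chicken. Over 13024 genes, same-numbered conA and control libraries correlated clearly in 4 of 6 chickens, with a lowest value of -0.05. Which chickens these were is not reported here. The log2 fold change of RPS12 of 0.26 had the largest standard error of the 68 members at 0.215.

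The conA libraries were then set against each Bacillus strain in 1 fit of all 24 libraries. Against BS, 35 of 70 members were higher in conA and 0 lower by edgeR's quasi-likelihood test (26 large and 9 small), where 3.6% of all genes were higher and 0.567% lower. Against BV, 35 were higher and 0 lower (25 large and 10 small), where 3.23% of all genes were higher and 0.405% lower. Of the 4201 genes that averaged 1000 or more normalized counts, 323 were higher than in BS and 286 were higher than in BV. The same conA libraries enter both, and 33 members were called in both. The median log2 fold change was 0.36 against BS and 0.40 against BV, compared with -0.03 and -0.02 over all genes tested. With the chicken as a block, 51 members were higher than in BS (35 large and 16 small), where 6.95% of all genes were. Against BV, 48 were higher (32 large and 16 small), where 6.28% of all genes were. This block takes libraries of the same number as 1 chicken, and conA correlated clearly with BS and with BV in only 4 of 6 chickens.

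Again RPL22L1 and RPS2 had the highest values among the 68 members with enough reads. RPL22L1 had 1101, 1328 and 1597 normalized counts in conA, against 579, 636 and 799 in BS and 580, 704 and 1059 in BV libraries (lowest, median and highest). Its log2 fold change was 1.03 against BS (SE 0.152, adjusted p = 4.4e-05) and 0.88 against BV (SE 0.151, adjusted p = 0.000358), both by edgeR's quasi-likelihood test. RPS6 had log2 fold changes of 0.78 and 0.82, and RPL5 of 0.76 and 0.73, all without overlap between the conA and the Bacillus libraries. Genes called here and not against control included the stalk genes RPLP1 and RPLP2, with log2 fold changes of 0.54 and 0.55 against BS and 0.54 and 0.48 against BV. Whether the conA difference from a strain exceeded that from control was not tested. In total, conA did not overlap with BS for 17 members, where 2.22% of all genes were higher without overlap, and with BV for 16, where 2.09% were.

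Genes that serve translation alongside the ribosomal proteins were examined in lists. One list held 3 ribosomal proteins whose names differ from this pattern. After conA 0 of these 3 passed edgeR's quasi-likelihood test, 1 had an unadjusted p under 0.05, DESeq2 called 1, the fit with the chicken as a block called 1, and all 3 log2 fold changes were positive.

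Of 16 other genes with TOP mRNAs, 3 rose after conA and 0 fell, where 2.2% of all genes rose, and all 16 had a positive log2 fold change, with a median of 0.32. The fit with the chicken as a block called 8, where 3.52% of all genes did, and DESeq2 called 7, where it called 4.11% of the genes with an adjusted p. NPM1, a nucleolar chaperone of ribosome assembly, averaged 19887 ± 4222 normalized counts in conA and 9453 ± 600 in control libraries (SD, n = 6 each), a log2 fold change of 1.08 (adjusted p = 3.2e-05 by edgeR's quasi-likelihood test). NAP1L1, a histone chaperone, and PABPC1, which binds poly(A) tails, rose by log2 fold changes of 0.74 and 0.59. HNRNPA1, an RNA-binding protein, had 0.37 and passed with the chicken as a block but not without it. Against BS 11 and against BV 12 of these 16 genes were higher in conA, where 3.6% and 3.23% of all genes were.

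Initiation factors load mRNA and initiator tRNA onto the small subunit. Of 27 of their genes, 5 rose after conA and 0 fell, where 2.2% of all genes rose. The median log2 fold change was 0.25. With the chicken as a block 8 rose, where 3.52% of all genes did. DESeq2 called 9, where it called 4.11% of the genes with an adjusted p. EIF2S2 and EIF2S3, subunits of the factor that brings in the initiator tRNA, had log2 fold changes of 0.67 and 0.62, EIF1AX had 0.47 and EIF3M 0.45. Against BS 16 and against BV 14 of the 27 were higher in conA, where 3.6% and 3.23% of all genes were. Of 69 mitochondrial ribosomal protein genes, which build the separate ribosome of the mitochondrion, MRPL57 was the 1 that rose after conA in the fit without the block, with a log2 fold change of 0.48, which is a share below the 2.2% of all genes. In the fit with the block 6 rose, where 3.52% of all genes did, and by DESeq2 5 rose, where 4.11% did. The list median was 0.13.

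Among 13 genes that control ribosomal protein synthesis, 1 rose after conA and 0 fell, where 2.2% of all genes rose. The median log2 fold change was -0.02. The one that rose was MYC, a transcription factor of growth and ribosome production, which averaged 4324 ± 617 normalized counts in conA and 3215 ± 173 in control libraries (SD, n = 6 each). Its log2 fold change was 0.43 (SE 0.0997, adjusted p = 0.0252 by edgeR's quasi-likelihood test). LARP1, which binds TOP mRNAs, had 0.40 (adjusted p = 0.0843 by edgeR's quasi-likelihood test), and with the chicken as a block it passed too. RPS6KB2, an S6 kinase, had -0.40 (adjusted p = 0.364 by edgeR's quasi-likelihood test) and RHEB, an activator of mTOR, had -0.28, both short of the test. In BS and BV against control, 0 of the 128 genes in these 5 lists passed edgeR's quasi-likelihood test. An unadjusted p under 0.05 was found for 2 of them in BS and 3 in BV, and DESeq2 called 1 (NPM1) lower in BS and 0 in BV. With the chicken as a block, NPM1 was lower than control in BS by a log2 fold change of -0.35 (adjusted p = 3.21e-05) and in BV by -0.31 (adjusted p = 0.000226), and EIF5, an initiation factor that acts on the initiator tRNA complex, was lower in BS at -0.26 (adjusted p = 0.00791), all by edgeR's quasi-likelihood test.

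**Figure D5:**
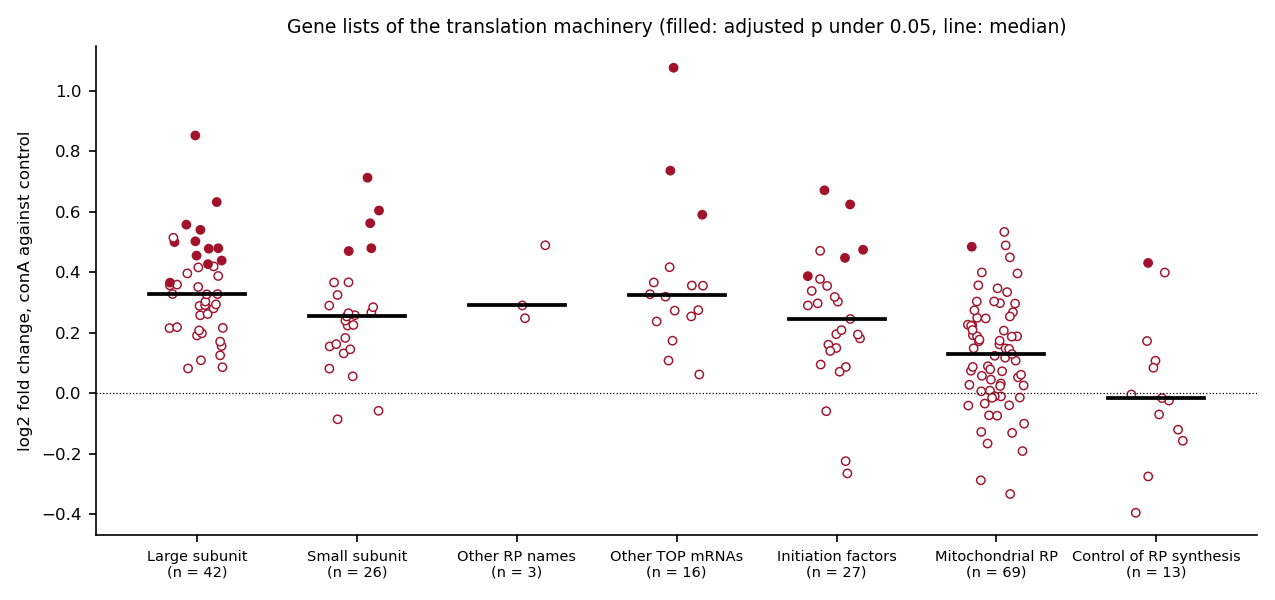
Log2 fold changes of conA against control for large and small subunit ribosomal protein genes that averaged 10 or more normalized counts and for 5 further lists of the translation machinery. Each point is a gene, filled where the adjusted p was under 0.05, and lines are list medians. Ribosomal protein, TOP and initiation factor genes have medians of 0.33, 0.26, 0.32 and 0.25, mitochondrial ribosomal protein genes 0.13, and genes that control ribosomal protein synthesis -0.02.

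Other properties of the libraries also differed between conA and control. Proliferation markers summed to 6912 to 10314 normalized counts in conA and 6164 to 7679 in control libraries, and all 10 had a positive log2 fold change, of which 1, MCM2, passed the test. The sum in conA was 1.12, 1.11, 1.60, 1.16, 0.957 and 1.43 times that in control in chickens 1 to 6. Thrombocyte markers summed to 674 to 15763 in conA and 966 to 97622 in control libraries. Of these, 0 of 7 had a positive log2 fold change, 1 (F13A1) fell at an adjusted p under 0.05, and none was at 0 throughout a group. In the fit with the chicken as a block 5 of the 7 fell, among them GP9 and TUBB1, where 2.6% of all genes did. The thrombocyte sum in conA was 0.161, 0.0706, 0.272, 0.152, 0.474 and 1.02 times that in control in chickens 1 to 6. T cell markers summed to 58408 to 65403 in conA and 51191 to 67548 in control libraries. The B cell sum in conA was 0.621, 0.618, 0.882, 1.06, 1.73 and 1.13 times that in control in chickens 1 to 6. The part of these properties in the ribosomal protein result was not tested. Within chickens 1 and 2, whose libraries were numbered together, 0 members passed for conA against control and the median log2 fold change was 0.27. In chickens 3 to 6 these values were 11 and 0.32.

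The number of calls depended on single chickens. When 1 chicken was left out, 4 to 16 members rose after conA, with 4 left when either chicken 2 or chicken 3 was left out, 8 when either chicken 4 or chicken 6 was, and 16 at the most. RPS2 kept its call only without chicken 5 and lost it in the other 5 of these fits, with an adjusted p of up to 0.178 by edgeR's quasi-likelihood test, and RPS24 lost it in 4 (without chicken 2, 3, 4 or 6, up to 0.114). RPL4, RPL26L1 and RPL7A lost it without chicken 2 and without chicken 3. RPL9, RPL21, RPL23, RPL27 and RPL7L1 kept it in only 1 of these fits, RPL32 in 2, and RPL6 and RPS15A in 3. RPL5, RPL22L1 and RPS6 were among the members called in each of the 21 alternatives that kept more than 2 chickens.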

How the data were processed

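PBMCs of 6 chickens were sequenced per condition (BS, BV, conA, control). According to the methods, the authors prepared libraries with the SMART-Seq Stranded kit from total RNA with an integrity number above 4, trimmed reads with Skewer and aligned them to GRCg6a with STAR 2.7.3. The counting tool, its strand setting and its treatment of reads shared by paralogs were not stated in the sources at hand. The deposited counts are whole reads per gene. The deposited normalized signal is that count divided by a DESeq2 size factor, which was checked on all rows. The authors used DESeq2 1.24.0 for their own tests, which were not used.

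The 20266 genes with 2 or more reads in total were tested with edgeR 4.0.16 in R 4.3.3 (TMM, robust quasi-likelihood fit, Benjamini-Hochberg adjustment, threshold 0.05, and additionally an absolute log2 fold change above 1.5). BS, BV and control were fitted together, conA with control, and conA against each strain in a fit of all 24 libraries. Intervals are normal 95% intervals from the SE. Log2 ratios within chickens used a pseudocount of 0.5. DESeq2 1.42.0, other normalizations and filters, single chickens left out, and subsets by library numbering were tried as alternatives. The scripts were tested on simulated data.

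Replicate numbers were taken to name the chicken, because the study plots its control, BS and BV values by individual bird. Over 13024 genes, same-numbered deviations correlated by 0.361 to 0.851 for BS with control and 0.478 to 0.872 for BV with control. For conA with control they correlated by -0.05 to 0.76, and only 4 of 6 pairs correlated clearly. Pairs of different numbers reached 0.50 there, with a median of -0.09. Counts and ratios of conA within chickens rest on this numbering. The chicken as a block is given beside the counts of calls that it moved by over 1.5 times.

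Members were described by role, by the lowest and highest mean level, and by the 4 largest positive and negative log2 fold changes per subunit against control among members that averaged 10 or more normalized counts. The remaining members that rose after conA, and those singled out by chicken (RPS12, RPL38, RPL24), were named after their values were seen. The members and lists were chosen with earlier results of these data known. RefSeq (GRCg7b) served for synonyms only, and 69 of 70 rows matched by symbol. No sequences are shown, and the results of a few genes are not reported here.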

Additional observations from a re-analysis of the deposited data

Results flagged for a closer look

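Of 176 groups of 6 libraries tested for a value far from the others (by the gap to its nearest neighbour relative to the range of the group), 6 were flagged, where chance flags about 1 in 20. RPL27A had 9183 normalized counts in the BS library of chicken 6, with the other BS libraries at 6487 to 7107. The control library of the same chicken had 9198, with the other control libraries at 6547 to 7323. RPL22L1 had 1059 in the BV library of chicken 1, with the others at 580 to 726. RPS4Y1 had 20903 in the BV library of chicken 5, with the others at 14170 to 16050. RPL3L had 12.2 in the BV library of chicken 6, with the others at 2.59 to 5.28. The large to small subunit ratio was 2.16 in the control library of chicken 3, with the others at 1.959 to 2.01.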

How the results depend on the processing

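The count of members higher in conA than in control (17) was 28 with the replicate block, 9 with library size only, 0 in chickens 1 and 2 only and 11 in chickens 3 to 6 only. It was 4 to 16 with 1 chicken left out, and 16 to 28 with the block and 1 chicken left out (27 without chicken 5). The count against BS (35) was 23 with library size only, 4 in chickens 1 and 2 only, 23 in chickens 3 to 6 only, 23 to 41 with 1 chicken left out (23 without chicken 3), and 41 to 58 with the block and 1 chicken left out (58 without chicken 5). The count against BV (35) was 2 in chickens 1 and 2 only, 20 in chickens 3 to 6 only, 23 to 43 with 1 chicken left out (23 without chicken 3), and 39 to 59 with the block and 1 chicken left out (59 without chicken 5). Chickens 1 and 2 only means fewer samples, and for the other settings the cause was not tested. The count of members lower in BV than in control (0) was 0 to 1 with the block and 1 chicken left out, where RPS6 was called without chicken 3 and without chicken 5. Over the 128 genes of the 5 further lists, 10 rose after conA against control, with 24 by DESeq2 and 25 with the replicate block, and the 0 that fell after BS and after BV were 2 and 1 with the block. By list, the number that rose after conA was 8 with the block and 7 by DESeq2 for the TOP genes (3), 8 and 9 for initiation factors (5), 6 and 5 for mitochondrial ribosomal proteins (1), and 2 and 2 for the control genes (1). The cause was not tested. Per subunit, the block moved the 12 large and 5 small genes higher in conA than in control to 20 and 8, and the small subunit genes higher than in BS (9) and in BV (10) to 16 each. The pairing by chicken otherwise moved no count of members called by over 1.5 times. The conA values of RPS27L (0.12) and RPS29 (0.013) turned positive in chickens 1 and 2 only. All other counts over the 70 members stayed within 1.5 times under the alternatives run, while counts per subunit were recomputed with the block and by DESeq2 only. The median log2 fold change of the members stayed between 0.26 and 0.33 for conA, -0.17 and -0.04 for BS and -0.18 and -0.03 for BV against control, while that of BS against BV changed sign around 0. The summed share of counts after conA stayed at 1.21 to 1.35 times control in each subunit.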
